A study of Mus musculus with 18 samples.

Results

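This account covers 140 genes of mouse chromosome 18 that lie around Apc. They are the genes that start between 20000000 and 60000000 on chromosome 18 of the mm10 genome build and that averaged at least 1 CPM, a count scaled to the total of gene counts in its library, over all 18 libraries. The deposited files list 403 genes in that segment. A count was recorded for 307 of them, and 145 reached 1 CPM. Apc was left out by name, as were another 4 genes, which leaves 140 of the 39179 genes listed and of the 15006 genes tested. All 140 passed the filter on low counts, and 116 averaged at least 5 CPM. Position and mean level chose the genes, and the segment was proposed with the lower level of chromosome 18 genes in the APC-deleted line already known, so the counts below describe the segment and support nothing about it by themselves.

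The study compared 2 isogenic lines of MC38, a colon adenocarcinoma line from C57BL6 mice, by RNA sequencing of gene counts. Both lines carry a doxycycline-inducible short hairpin RNA against TDO2, per the labels' protocols, although the titles of the untreated libraries do not name it. The 6 groups, of 3 libraries each, were APC-deleted cells without doxycycline, APC-intact cells without doxycycline, APC-deleted and APC-intact cells after 24 h of 1 uM doxycycline, and APC-deleted and APC-intact cells after 48 h of it. The replicates are described as biological triplicates. The sources used here do not give the number of clones behind the APC-deleted line, the exons removed or a hairpin with no target, so the deletion cannot be told apart from other differences between the lines, nor the hairpin from doxycycline.

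Apc encodes a scaffold of the complex that marks beta-catenin for destruction, and its loss is a frequent early event in colorectal tumours. The genes around it share a place on the chromosome and not a pathway. Among them are subunits of the machinery for secretion, translation and cell division, chromatin regulators, a few secreted or cell surface signals, and the clustered protocadherins, adhesion proteins whose gamma members splice variable first exons to shared constant exons.

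Each library held 71970499 to 111948430 gene counts, and the common biological coefficient of variation was 8.33%. Apc itself, on the plus strand at 34220924 to 34322189, had 74.0, 79.5 and 72.2 CPM in untreated APC-deleted cells, against 116, 95.9 and 123 CPM in untreated APC-intact cells. It had 81.0, 83.4 and 84.2 CPM in APC-deleted cells at 24 h, against 135, 96.0 and 147 CPM in APC-intact cells, and 89.8, 73.9 and 88.4 CPM in APC-deleted cells at 48 h, against 144, 131 and 142 CPM in APC-intact cells. Its log2 fold changes of APC-deleted over APC-intact were -0.57, -0.60 and -0.73. No library of one line overlapped the other at the same time, but counts over the whole gene do not check the deletion. Tdo2, the target of the hairpin, had 6 to 27 raw counts in the APC-deleted libraries and 6 to 29 in the APC-intact libraries, too few to check the knockdown. Of 10 epithelial markers, 8 averaged under 0.1 CPM over all libraries, Epcam and Cdx2 among them. The other 2, Cdh1 and Krt8, had group means of 0.868 to 1.58 and 1.06 to 3.80 CPM. Of 8 fibroblast markers 6 averaged 1 CPM or more, while Lum had group means of 0.0997 to 1.03 CPM and Thy1 of at most 0.0036 CPM. Most of these markers go against an epithelial state of this carcinoma line. The summed fibroblast markers lay at 4150 to 4670 CPM in untreated APC-deleted cells and 3550 to 3690 CPM in untreated APC-intact cells, and the summed epithelial markers at 4.85 to 5.39 and 2.68 to 3.62 CPM in the same groups. Over all times the fibroblast sum ran from 3380 to 4670 CPM in APC-deleted cells and from 2750 to 3690 CPM in APC-intact cells. Of 7 haematopoietic markers 0 reached 1 CPM, with sums of at most 0.756 CPM in APC-deleted cells and 1.86 CPM in APC-intact cells, and 1 of 5 endothelial markers did, with sums of 3.03 to 4.18 CPM in APC-deleted cells and 5.40 to 6.40 CPM in APC-intact cells. The part of these markers in the line differences was not tested. APC-intact 24 h replicate 1 and APC-deleted 48 h replicate 2 stood apart from the other libraries in a principal component analysis. The former scored 35.1 on component 4 (4.07% of variance) and the latter -34.7 on component 3 (4.84%). APC-intact 24 h replicate 2 scored -22.5 on component 3 and was not counted among them. Some results are also given without the 2 libraries that stood apart. The other values at 24 h and at 48 h include them and may move without them. The file names carry 2 designations, read here as runs, which is an inference that the labels do not state. Both untreated groups and APC-intact cells at 24 h share one of them, and the other 3 groups share the second. On that reading line and run cannot be told apart at 24 h. Both lines share a designation without doxycycline and at 48 h.

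Most genes of the segment had a lower estimate in the APC-deleted line than in the APC-intact line: 116 of 140 without doxycycline, 111 at 24 h and 114 at 48 h. Those are 82.9%, 79.3% and 81.4%, beside 50.9%, 51.2% and 50.1% of all tested genes. Without doxycycline 58 of the 140 genes were lower and 8 higher at an adjusted p under 0.05 (edgeR quasi-likelihood test, Benjamini-Hochberg over all genes tested). That is 41.4% lower and 5.71% higher, where 13.8% of all tested genes were lower and 13.4% higher. Among the tested genes at 1 CPM or more, which the segment's genes also had to reach, 14.9% were lower and 16.1% higher. At 24 h 66 were lower and 11 higher, beside 15.1% and 16.0% of all tested genes and 16.2% and 19.4% of those at 1 CPM or more. At 48 h 67 were lower and 7 higher, beside 16.8% and 17.8% of all tested genes and 18% and 21.6% of those at 1 CPM or more. The median line difference, given throughout as the log2 fold change of APC-deleted over APC-intact so that a negative value is lower in APC-deleted cells, was -0.150 without doxycycline, -0.162 at 24 h and -0.175 at 48 h. A median of -0.150 is a level of 0.901 times that in APC-intact cells. Over all tested genes the medians were -0.004 without doxycycline and -0.007 at 24 h. Without the 2 libraries that stood apart, 69 genes were lower and 10 higher at 24 h, with a median of -0.170, and 67 were lower and 8 higher at 48 h, with a median of -0.146. In bulk RNA, fewer cells that express a gene and less RNA per cell cannot be told apart.

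**Figure D1:**
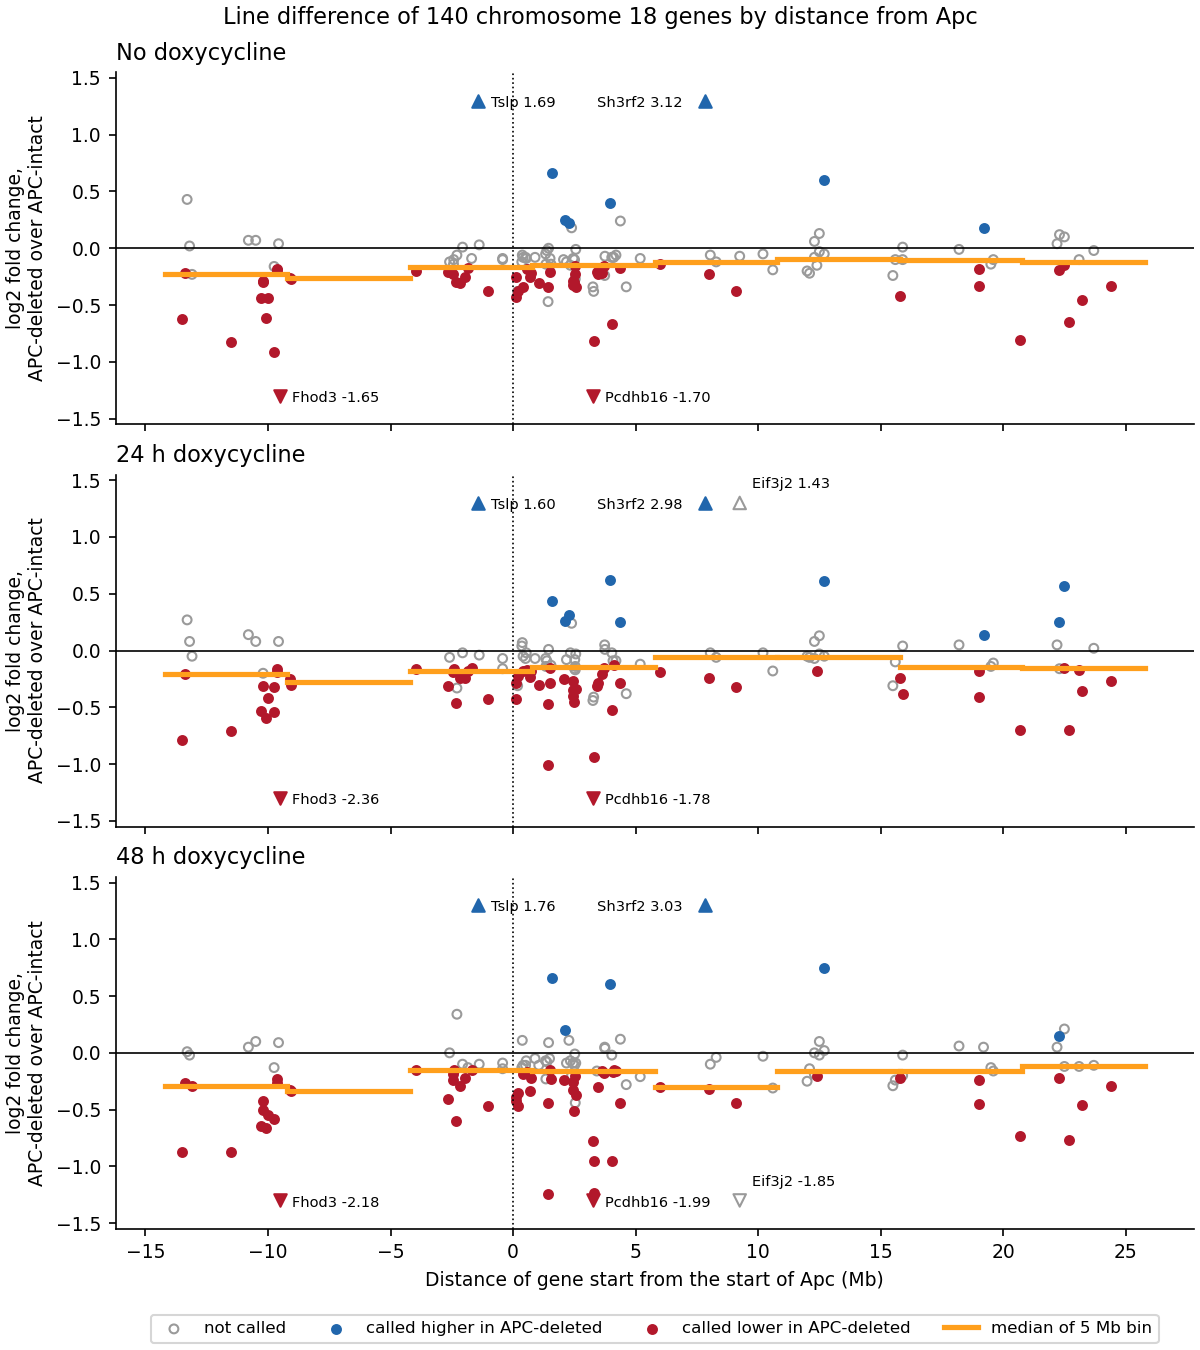
The log2 fold change of APC-deleted over APC-intact cells (vertical axis) is plotted for each of the 140 genes against the distance of its start from the start of Apc in Mb, without doxycycline and after 24 h and 48 h of it. Filled points were called (red lower, blue higher in APC-deleted cells), orange bars are medians of 5 Mb bins, and triangles mark genes with larger differences, drawn nearer to 0 than the values printed beside them. The bin medians lie below 0 in all 3 panels.

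The median did not change steadily with distance from Apc. Without doxycycline, the 16 genes that start within 1 Mb of the start of Apc had a median of -0.151, with 7 called lower and 0 higher. The 62 genes at 1 to 5 Mb had a median of -0.154, with 25 lower and 5 higher. The 16 genes at 5 to 10 Mb had a median of -0.169, with 9 lower and 1 higher. The 46 genes farther out had a median of -0.146, with 17 lower and 2 higher. Of all tested genes 13.8% were lower and 13.4% higher without doxycycline. At 24 h the same rings had medians of -0.166, -0.164, -0.19 and -0.125 from the nearest to the farthest. At 48 h they had medians of -0.151, -0.161, -0.288 and -0.194 in that order. No test was made of these medians.

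Along the segment, all 8 bins of 5 Mb had a median below 0 in each treatment group. Without doxycycline the 2 bins at the low end had the lowest medians, -0.230 over the 19 genes from 20 Mb and -0.265 over the 2 genes from 25 Mb. The least negative was -0.093, over the 12 genes from 45 Mb, where 1 gene was called lower and 1 higher. In the first bin 12 of 19 genes (63.2%) were called lower and 0 higher, beside 13.8% and 13.4% of all tested genes. On the low side of Apc 39 genes had an untreated median of -0.198, and on its high side 101 genes had one of -0.138. The same sides were at -0.226 and -0.164 after 48 h. The bin from 25 Mb holds too few genes to rank. Leaving out single libraries gave untreated medians of -0.272 to -0.201 for the bin from 20 Mb and -0.194 to -0.146 from 30 Mb. The bin from 45 Mb then ranged from -0.112 to -0.074 and that from 50 Mb from -0.152 to -0.075. Which bin was least negative is thus uncertain. Bin medians also moved with the 2 libraries that stood apart: at 48 h the bin from 45 Mb was at -0.163 with them and -0.026 without.

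The rest of chromosome 18 had medians below 0 too. Its 145 genes at 1 CPM or more had medians of -0.128 without doxycycline, -0.124 at 24 h and -0.164 at 48 h. Of them 56, 56 and 65 (38.6%, 38.6% and 44.8%) were called lower and 10, 11 and 12 called higher. Of all tested genes 13.8%, 15.1% and 16.8% were lower and 13.4%, 16.0% and 17.8% higher. The 41 genes before the segment had a median of -0.155 and the 104 after it a median of -0.127 without doxycycline. Over the 11145 genes of the other chromosomes the medians were 0.009, 0.015 and 0.020. Chromosome 18 as a whole, Apc and the genes left out by name included, had the lowest median of 20 chromosomes in each treatment group, at -0.141, -0.154 and -0.171. Chromosome 5 came next, at -0.125, -0.118 and -0.113, and chromosome 12 had the highest median, at 0.142, 0.140 and 0.137. The difference between the segment and the remainder of its chromosome was not tested.

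**Figure D2:**
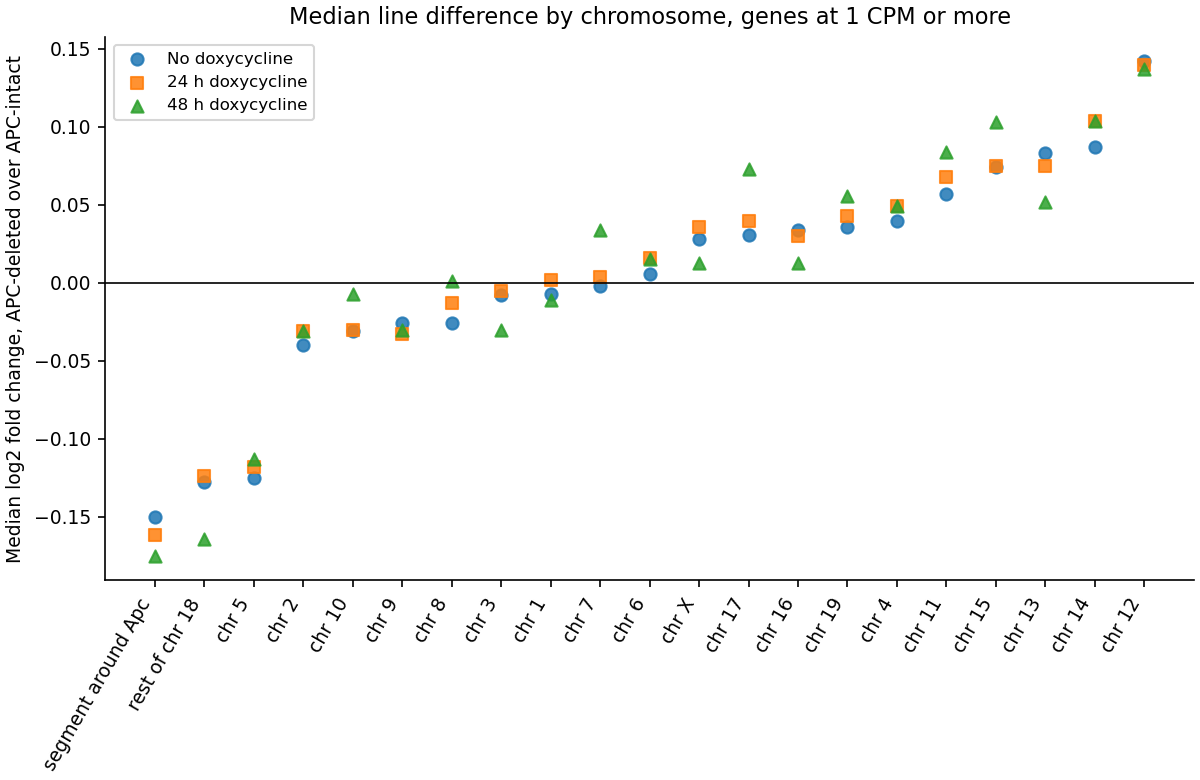
The median log2 fold change of APC-deleted over APC-intact cells (vertical axis) is shown for the segment around Apc, for the rest of chromosome 18 and for each other chromosome, over genes at 1 CPM or more, in 3 treatment groups (symbols). The segment and the rest of chromosome 18 lie lowest without doxycycline, at -0.150 and -0.128, with chromosome 5 close by at -0.125.

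Every APC-deleted library gave the 140 genes a smaller share of its counts than every APC-intact library. The share was 1.10 to 1.18% of gene counts over the 9 APC-deleted libraries and 1.28 to 1.36% over the 9 APC-intact libraries. The widest 95% Wilson interval reached 0.0026 percentage points to either side, which covers counting error only. Measured for each gene against its own mean over the 18 libraries, the median deviation on the log2 scale ran from -0.175 to -0.045 in APC-deleted libraries and from 0.039 to 0.126 in APC-intact libraries. The lowest value belonged to APC-deleted 48 h replicate 2, whose group mates lay at -0.045 and -0.060. The lines separated outside the segment too. The rest of chromosome 18 ran from -0.145 to -0.030 in APC-deleted libraries and from 0.018 to 0.126 in APC-intact libraries. Chromosome 5 ran from -0.079 to -0.057 in APC-deleted libraries and from 0.043 to 0.071 in APC-intact libraries. The share of counts that fell in no annotated feature was 4.70 to 4.99% in APC-deleted libraries and 5.25 to 6.12% in APC-intact libraries without doxycycline. At 24 h it was 5.33 to 5.59% in APC-deleted and 5.59 to 6.59% in APC-intact libraries, and at 48 h 5.25 to 6.10% in APC-deleted and 6.27 to 7.01% in APC-intact libraries. Its part in the line differences was not tested.

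**Figure D3:**
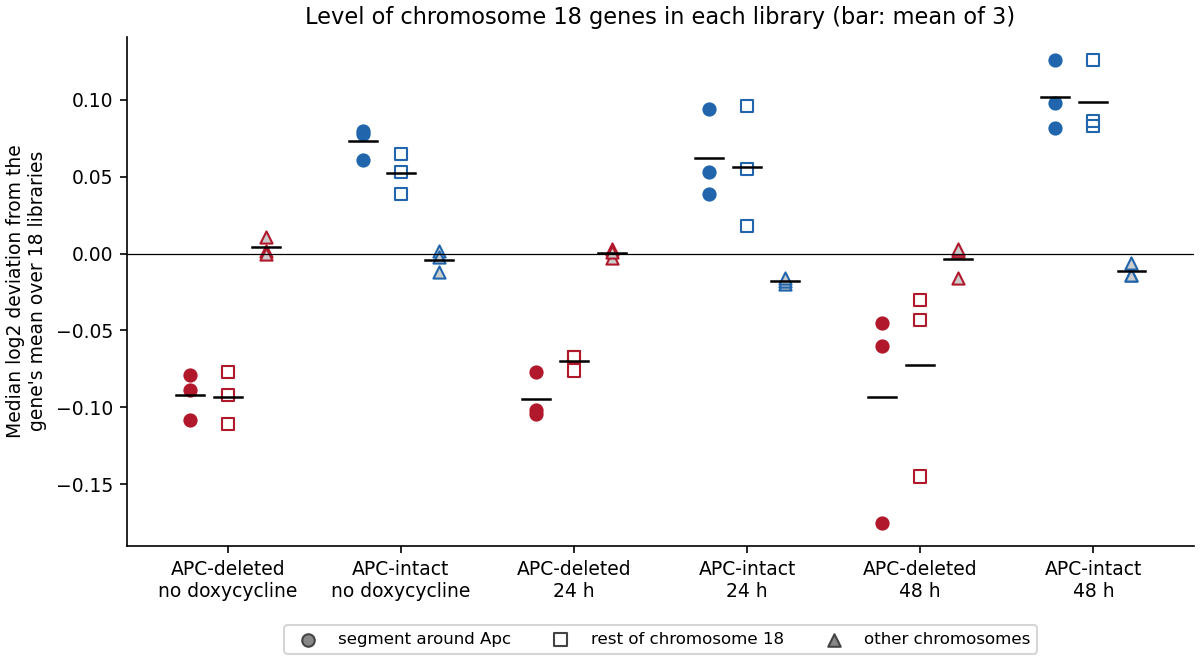
For each library, the median over genes of the log2 deviation from the gene's mean over 18 libraries (vertical axis) is plotted for the segment around Apc (circles), the rest of chromosome 18 (squares) and other chromosomes (triangles), with bars at the mean of 3 libraries. The APC-deleted circles (red) lie between -0.175 and -0.045 and the APC-intact circles (blue) between 0.039 and 0.126, while the triangles stay near 0. The squares separate by line too, at -0.145 to -0.030 and 0.018 to 0.126.

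The untreated and 48 h comparisons use separate libraries. Of the 58 genes lower without doxycycline, 52 were also lower at 48 h, which is 89.7% of the first list and 77.6% of the second. Recurrence was common over all tested genes too: 2076 were lower without doxycycline, and 1420 were lower in all 3 treatment groups. That rule is stricter than the 2 comparisons used for the segment, where 49 of the 58 were lower in all 3. The count over all tested genes in both the untreated and the 48 h comparison is not given here. The line differences of the 140 genes correlated across genes with a Pearson r of 0.905 and a Spearman rho of 0.863 between these 2 comparisons. Genes are not independent replicates, and the 4 groups come from the same 2 lines. In all 3 treatment groups 49 genes (35.0%) were called lower and 6 (4.29%) higher, where 9.46% of all tested genes were lower and 10.3% higher in all 3. A further 52 genes (37.1%) were called in none, and 0 were called in opposite directions. The estimate was below 0 in all 3 for 106 genes. The correlations and the counts of 52 uncalled and 106 lower estimates are not given here over all tested genes. For 57 genes (40.7%) every APC-deleted library lay below every APC-intact library within all 3 treatment groups, as did 12% of all tested genes.

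**Figure D4:**
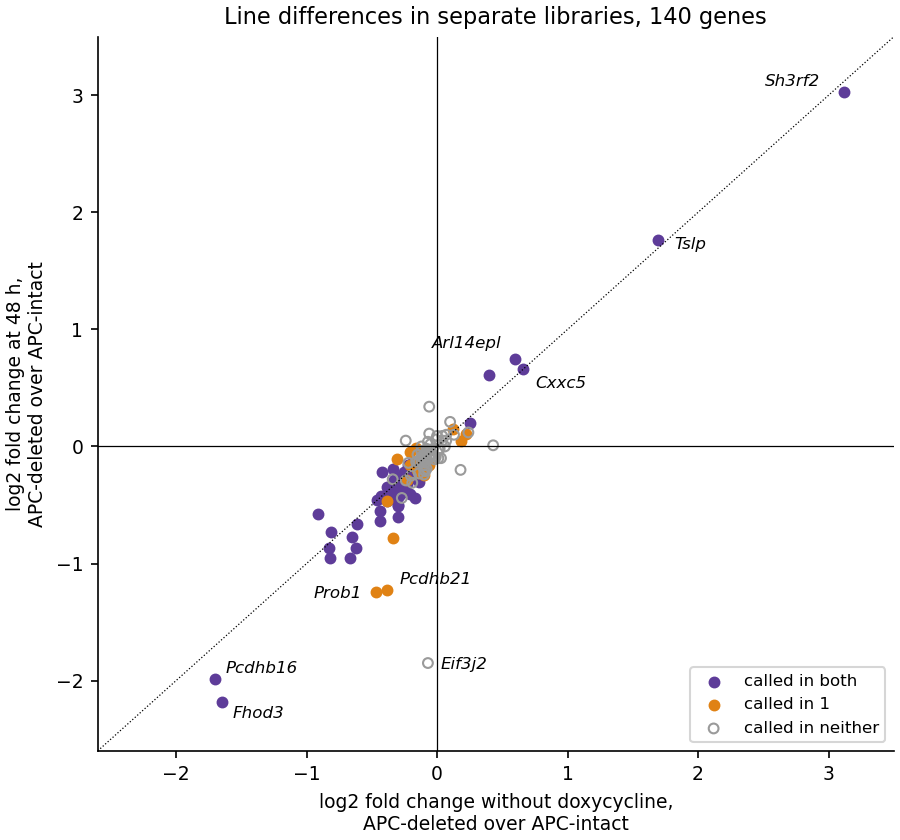
The log2 fold change of APC-deleted over APC-intact cells without doxycycline (horizontal axis) is plotted against the same value at 48 h (vertical axis), 1 point per gene, with the line of equal values dotted. Most points called in both comparisons lie in the lower left, and Sh3rf2 and Tslp lie farthest to the upper right at 3.12 and 1.69 without doxycycline.

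Of the 6 nearest genes on each side of Apc, the pair just after its end was called lower in all 3 treatment groups. Srp19, which encodes a subunit of the signal recognition particle, starts 0.110 Mb from the start of Apc (plus strand, 34330847 to 34336599). It had 57.8, 57.9 and 58.3 CPM in untreated APC-deleted cells, against 77.3, 79.1 and 78.2 CPM in untreated APC-intact cells. At 48 h it had 57.5, 58.7 and 57.7 CPM in APC-deleted cells and 75.4, 77.5 and 79.6 CPM in APC-intact cells. The lines did not overlap in any treatment group, and the line difference was -0.43 ± 0.058 (SE) without doxycycline, -0.43 ± 0.0581 at 24 h and -0.42 ± 0.0581 at 48 h (adjusted p = 1.13e-05, 9.1e-06 and 1.26e-05).

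Reep5, which encodes a protein that shapes the endoplasmic reticulum (minus strand, 34344889 to 34373415), had 154, 155 and 159 CPM in untreated APC-deleted cells, against 183, 192 and 182 CPM in untreated APC-intact cells. Its lines stayed apart at 24 h and at 48 h, and its line differences were -0.25 ± 0.0537, -0.29 ± 0.0537 and -0.39 ± 0.0538 (adjusted p = 0.00129, 0.000323 and 1.26e-05). Fam13b was called lower in all 3 groups, at -0.38, -0.22 and -0.35. Its span overlaps that of Pkd2l2 on the opposite strand, and reads of this pair cannot be told apart unless the counting used strand. The 24 h call of Fam13b was lost without APC-deleted 24 h replicate 1 (adjusted p = 0.121), APC-deleted replicate 2 (0.0762) or APC-intact replicate 3 (0.212). Pkd2l2, which encodes a polycystin family channel, was called lower at 48 h only, at -0.47 ± 0.149, and that call was lost without APC-deleted 48 h replicate 2 (adjusted p = 0.0886), APC-intact replicate 1 (0.0541) or APC-intact replicate 3 (0.0738). Brd8, which encodes a bromodomain subunit of the NuA4 acetyltransferase complex, had values of -0.06, 0.07 and 0.11 and did not pass the test, and 4933408B17Rik, near the level threshold, was not called either.

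On the other side of Apc, Tslp and Stard4 were called in all 3 treatment groups. Tslp, a cytokine of epithelial and stromal cells, was higher in APC-deleted cells. It had 5.50, 4.81 and 5.96 CPM in untreated APC-deleted cells, against 1.88, 1.56 and 1.60 CPM in untreated APC-intact cells. Its line differences were 1.69 ± 0.126, 1.60 ± 0.131 and 1.76 ± 0.131 (adjusted p = 2.71e-09, 1e-08 and 2.66e-09), and no library overlapped. Stard4, which encodes a cholesterol carrier, had 24.1, 23.4 and 24.6 CPM in untreated APC-deleted cells, against 31.1, 31.8 and 30.8 CPM in untreated APC-intact cells. Its line differences were -0.38, -0.43 and -0.47. Among the other genes on this side, Wdr36 (0.03, -0.04 and -0.10), which encodes a protein of ribosomal RNA processing, Epb4.1l4a (-0.10, -0.07 and -0.09) and the long noncoding gene model 2410004N09Rik (-0.09, -0.16 and -0.14) did not pass the test in any group. Gypc, the glycophorin C gene and the sixth on this side, was at -0.09 without doxycycline and was called lower at -0.15 at both later times. Those calls were lost in 3 of 6 single omissions at 24 h and 4 of 6 at 48 h, and at 24 h also without the 2 libraries that stood apart (-0.10, adjusted p = 0.191). Called and uncalled genes were thus interleaved along the chromosome.

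Farther along, Kif20a, Etf1 and Hspa9 start 0.404, 0.682 and 0.716 Mb after the start of Apc and were lower in all 3 comparisons. Kif20a, a mitotic kinesin needed for cytokinesis, had 110, 113 and 106 CPM in untreated APC-deleted cells, against 141, 136 and 140 CPM in untreated APC-intact cells. Its line differences were -0.34 ± 0.0479, -0.18 ± 0.0479 and -0.19 ± 0.0479, and its annotated span overlaps that of Cdc23 on the opposite strand. Etf1, the translation release factor, had 335, 333 and 337 CPM in untreated APC-deleted cells, against 397, 402 and 396 CPM in untreated APC-intact cells. At 48 h Etf1 had 352, 291 and 349 CPM in APC-deleted cells and 416, 406 and 432 CPM in APC-intact cells. Hspa9, the mitochondrial Hsp70 chaperone, had 1560, 1630 and 1580 CPM in untreated APC-deleted cells, against 1880, 1890 and 1780 CPM in untreated APC-intact cells. The lines did not overlap for any of the 3 genes at any time. The line differences of Etf1 were -0.25 ± 0.0612, -0.23 ± 0.0612 and -0.34 ± 0.0613, and those of Hspa9 were -0.22 ± 0.0469, -0.18 ± 0.0469 and -0.22 ± 0.0469 (adjusted p = 0.00141, 0.00634 and 0.000963). Small gene models overlap Hspa9 on its own strand. Per exon length Hspa9 was the most abundant of the 140 genes, at an average RPKM (CPM per kilobase of exon) of 443, ahead of Ppic at 225 and Ctnna1 at 205. Ctnna1, the alpha-catenin that links cadherins to actin, had 734, 748 and 762 CPM in untreated APC-deleted cells, against 815, 769 and 795 CPM in untreated APC-intact cells. These libraries did not overlap either, but its span overlaps that of Lrrtm2 on the opposite strand, and the line difference of -0.08 ± 0.0441 did not pass the test, nor did -0.07 at 24 h or -0.05 at 48 h. Cdc23, a subunit of the anaphase-promoting complex, was also uncalled at -0.08, -0.05 and -0.11. Kdm3b, a histone demethylase, was called lower in all 3 groups at -0.18, -0.17 and -0.17, with adjusted p of 0.0319, 0.0390 and 0.0391. Each of these calls was lost when 1 library was left out: 5 of the 6 single omissions without doxycycline and 4 of 6 at 24 h and at 48 h.

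Several large falls lay at the low end of the segment. B4galt6, which makes lactosylceramide, is the outermost gene of that end, 13.5 Mb before Apc. It had 23.2, 23.5 and 22.9 CPM in untreated APC-deleted cells, against 36.1, 34.5 and 36.3 CPM in untreated APC-intact cells. At 48 h it had 20.5, 17.5 and 20.7 CPM in APC-deleted cells and 35.1, 36.9 and 35.2 CPM in APC-intact cells. The lines stood well apart, with line differences of -0.62 ± 0.0602, -0.79 ± 0.0604 and -0.87 ± 0.0607 (adjusted p = 1.38e-07, 3.59e-09 and 1e-09). Ino80c, a subunit of the INO80 chromatin remodeller, had 35.4, 34.5 and 32.0 CPM in untreated APC-deleted cells, against 52.6, 53.3 and 49.2 CPM in untreated APC-intact cells, and line differences of -0.61 ± 0.0524, -0.59 ± 0.0524 and -0.66 ± 0.0525. Galnt1, an enzyme that starts mucin-type O-glycosylation, had 218, 220 and 204 CPM in untreated APC-deleted cells, against 285, 298 and 285 CPM in untreated APC-intact cells, and was lower in all 3 comparisons, at -0.44, -0.42 and -0.55. A gene model, Gm7701, overlaps it on the same strand. Nol4 (-0.83, -0.71 and -0.87), the zinc finger gene Zfp397 (-0.44, -0.53 and -0.64) and Rprd1a (-0.91, -0.54 and -0.58), which encodes a protein that binds the tail of RNA polymerase II, were lower as well. Fhod3, a formin known from heart muscle, was near the level threshold, with 0.819, 0.664 and 0.388 CPM in untreated APC-deleted cells, against 2.17, 1.59 and 2.11 CPM in untreated APC-intact cells. Its line differences of -1.65 ± 0.223, -2.36 ± 0.233 and -2.18 ± 0.231 were the lowest of the 140 at 24 h and at 48 h and second to Pcdhb16 without doxycycline. Its span overlaps that of Tpgs2 on the opposite strand.

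**Figure D5:**
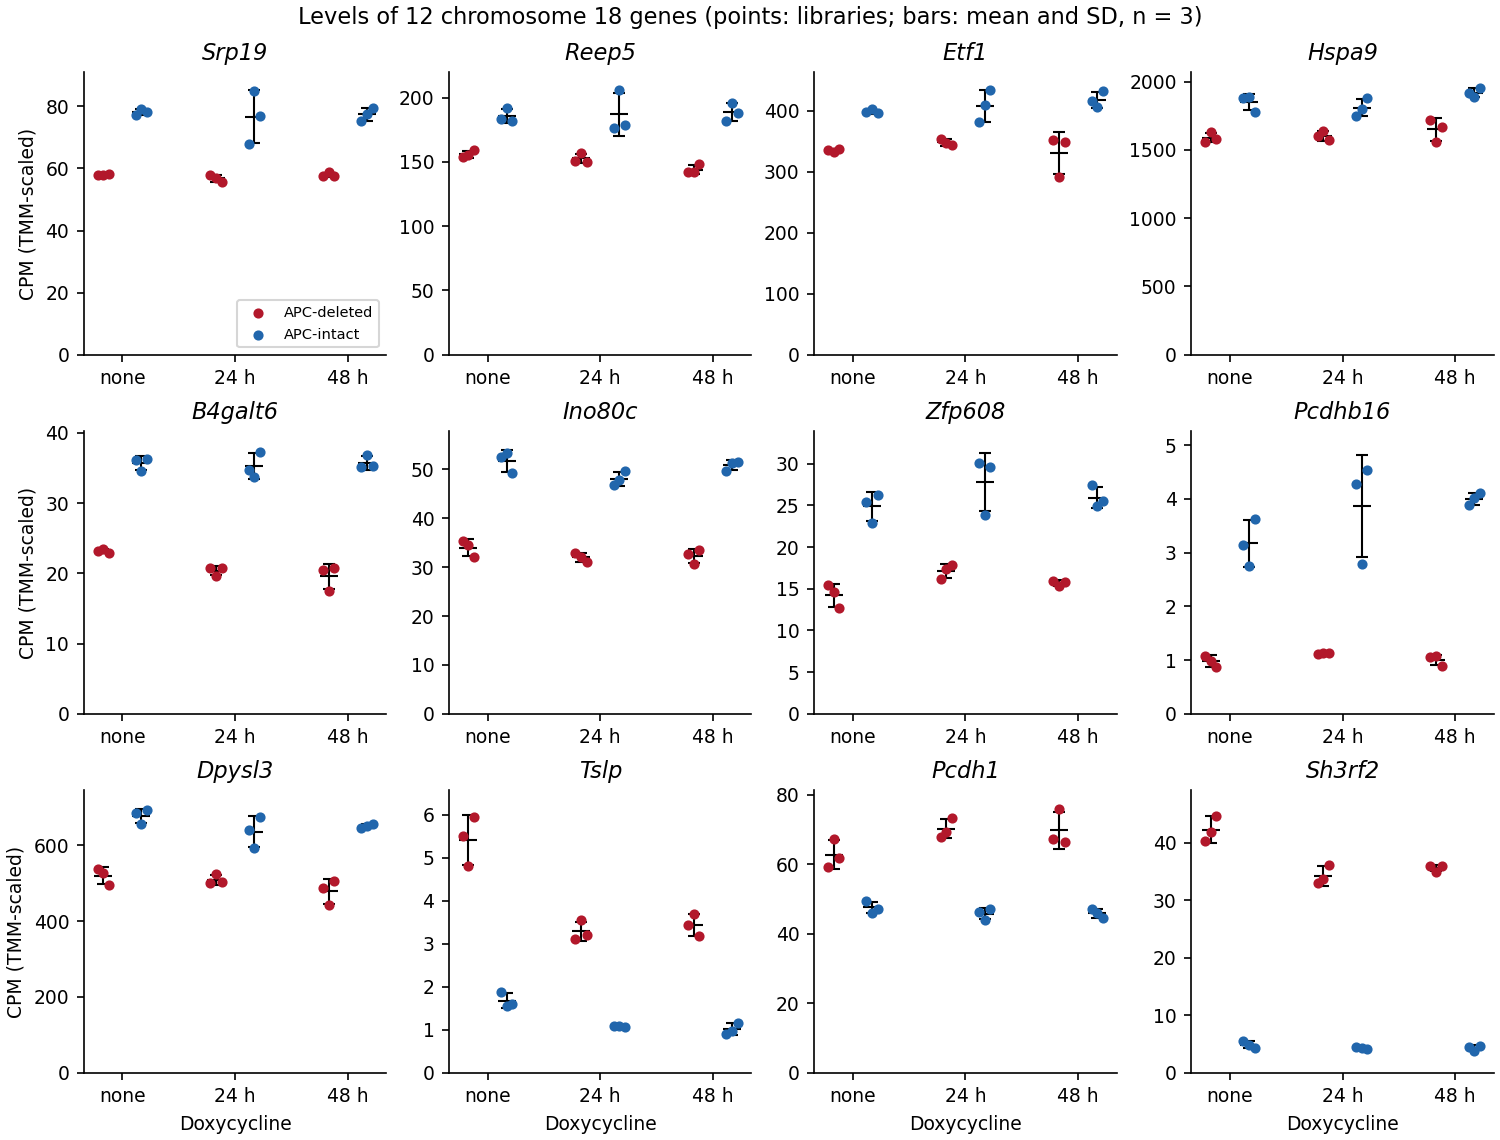
TMM-scaled CPM (vertical axis, from 0) of 12 genes of the segment in APC-deleted (red) and APC-intact (blue) cells without doxycycline and after 24 h and 48 h of it, with 1 point per library and bars at the mean and SD (n = 3). Within each treatment group the APC-deleted points lie below the APC-intact points for the first 9 genes and above them for Tslp, Pcdh1 and Sh3rf2.

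At the other end of the segment the transcriptional regulator Zfp608, 20.7 Mb after Apc, had 15.4, 14.6 and 12.7 CPM in untreated APC-deleted cells, against 25.4, 22.9 and 26.3 CPM in untreated APC-intact cells. Its line differences were -0.81 ± 0.086, -0.70 ± 0.0852 and -0.73 ± 0.0858. C330018D20Rik, a gene model, was also lower, at -0.65, -0.70 and -0.77. Lars, Dpysl3, Tmed7 and Ap3s1 lie nearer to Apc on the same side, between Apc and Zfp608. Dpysl3, a phosphoprotein of axon guidance that also binds the cytoskeleton, had 538, 527 and 496 CPM in untreated APC-deleted cells, against 684, 657 and 693 CPM in untreated APC-intact cells. Its line differences were -0.38 ± 0.0554, -0.32 ± 0.0554 and -0.44 ± 0.0555, with no overlap of the lines. Lars, the leucyl-tRNA synthetase, had 352, 354 and 353 CPM in untreated APC-deleted cells, against 415, 403 and 425 CPM in untreated APC-intact cells, and was called lower at -0.23, -0.24 and -0.32. Tmed7, a carrier of cargo from the endoplasmic reticulum, was at -0.08, -0.07 and -0.19, and Ap3s1, an adaptor subunit, at 0.13, 0.13 and 0.10, and neither was called.

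The protocadherins of the segment held both directions. Of 6 members, 3 were lower and 1 higher without doxycycline and at 24 h, and 5 were lower and 1 higher at 48 h. Pcdhb16 had 1.08, 0.986 and 0.865 CPM in untreated APC-deleted cells, against 3.15, 2.75 and 3.62 CPM in untreated APC-intact cells, and line differences of -1.70 ± 0.167, -1.78 ± 0.165 and -1.99 ± 0.168 (adjusted p = 1.67e-07, 6.33e-08 and 1.63e-08). Pcdhb22 was called lower at all times, at -0.82, -0.94 and -0.95. Pcdhb17 and Pcdhb21 were called at 48 h, at -0.78 ± 0.197 and -1.23 ± 0.284, and were at -0.34 and -0.38 without doxycycline, where neither passed the test. Pcdhga9 was called lower at -0.23, -0.29 and -0.30, but genes of this cluster share exons and near-identical sequence, so which member its reads belong to is uncertain. Pcdh1, a protocadherin outside the clusters, was the one that was higher. It had 59.2, 67.4 and 61.8 CPM in untreated APC-deleted cells, against 49.4, 46.1 and 47.2 CPM in untreated APC-intact cells, and line differences of 0.40 ± 0.0594, 0.62 ± 0.0595 and 0.61 ± 0.0595 (adjusted p = 3.36e-05, 1.16e-07 and 1.38e-07).

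The 6 genes higher in APC-deleted cells in all 3 treatment groups were Tslp, Pcdh1, Sh3rf2, Cystm1, Cxxc5 and Arl14epl, the last 2 of which were singled out after their values were seen. Sh3rf2, which encodes a RING finger protein with SH3 domains, showed the largest difference of the 140 genes. It had 40.2, 41.9 and 44.7 CPM in untreated APC-deleted cells, against 5.45, 4.88 and 4.30 CPM in untreated APC-intact cells. At 48 h it had 35.9, 34.9 and 35.9 CPM in APC-deleted cells and 4.52, 3.85 and 4.71 CPM in APC-intact cells. The line differences were 3.12 ± 0.0832, 2.98 ± 0.0841 and 3.03 ± 0.0838 (adjusted p = 4.44e-16, 1.14e-15 and 8.6e-16). Its neighbour Lars was called lower in all 3 comparisons, as given above. Cxxc5, a CXXC zinc finger gene, was higher by 0.66, 0.44 and 0.66, and its 24 h call was lost without APC-intact 24 h replicate 3 (adjusted p = 0.0557). Arl14epl was higher by 0.60, 0.61 and 0.75. Cystm1, which encodes a small cysteine-rich membrane protein, was higher by 0.25, 0.26 and 0.20. Its calls were lost without APC-intact untreated replicate 3 (adjusted p = 0.0644), without either APC-deleted 24 h replicate 1 (adjusted p = 0.0623) or APC-intact 24 h replicate 3, and at 48 h in 5 of 6 single omissions.

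Among the ligands and receptors, Hbegf, a growth factor of the EGF family, had 74.1, 77.1 and 75.9 CPM in untreated APC-deleted cells, against 66.5, 64.8 and 63.9 CPM in untreated APC-intact cells. Its line differences were 0.22 ± 0.0452, 0.31 ± 0.0453 and, uncalled, 0.11 ± 0.0453 (adjusted p = 0.00111, 2.37e-05 and 0.0654). Cd14, a co-receptor for lipopolysaccharide, went the other way, with 14.7, 13.6 and 13.8 CPM in untreated APC-deleted cells, against 17.3, 17.6 and 16.9 CPM in untreated APC-intact cells, and line differences of -0.30, -0.45 and -0.51. Ppic, the cyclophilin C gene, had 293, 298 and 299 CPM in untreated APC-deleted cells, against 257, 270 and 257 CPM in untreated APC-intact cells. It was higher by 0.18 ± 0.0473 without doxycycline and by 0.14 ± 0.0473 at 24 h, but the 24 h call was lost in 4 of 6 single omissions, and 0.05 at 48 h was not called.

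Grouped by role, of 16 genes of transcription and chromatin 10 were lower and 1 higher without doxycycline, and 11 were lower and 1 higher at 24 h and again at 48 h, with medians of -0.194, -0.220 and -0.215. Nr3c1, the glucocorticoid receptor, was among the uncalled at -0.09, -0.12 and -0.21. Of 14 genes of membrane traffic and autophagy, 7, 8 and 7 were lower and 0 higher, with medians of -0.175, -0.157 and -0.157. Of 19 genes of RNA processing, translation and folding, 6, 7 and 8 were lower and 0 higher, with medians of -0.098, -0.129 and -0.152. The RNA-binding nuclear matrix protein gene Matr3 was uncalled there, at -0.14, -0.14 and -0.23, but at 48 h it was called in 6 of 14 alternative fits. Of 10 genes of metabolism, 4, 5 and 5 were lower and 0, 1 and 1 higher. Of 5 genes of mitosis and the nuclear lamina, 2, 2 and 1 were lower and 0 higher. Of 9 kinases and signal adaptors, 3 were lower in each treatment group and 0, 1 and 0 higher. Of the 5 ligands and receptors, 1, 2 and 2 were lower and 2, 2 and 1 higher. Over all 140 genes 41.4%, 47.1% and 47.9% were lower and 5.71%, 7.86% and 5.0% higher. Of all tested genes 13.8%, 15.1% and 16.8% were lower and 13.4%, 16.0% and 17.8% higher. No difference between these groups, or of a group from the whole segment, was tested.

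Genes called lower were found at low and at high levels. Among the 35 genes with the lowest mean level, 1.04 to 12.8 CPM, 12 were called lower and 3 higher without doxycycline, and their median was -0.242. Among the 35 with the highest, 104 to 1740 CPM, 16 were lower and 1 higher, and the median was -0.147. Just inside the level threshold lay Pcdhb21 at 1.04 CPM and 4933408B17Rik at 1.06 CPM, and just outside it Gm5506 at 0.984 and 2010110K18Rik at 0.879 CPM, with line differences of -0.61 and -0.54 without doxycycline for the 2 left outside. At the ends of the segment, B4galt6 and Isoc1 were the outermost genes inside, at -0.62 and -0.33, and Gm7665 and Gm4951 the nearest outside, at -0.08 and -0.42. The gene model Eif3j2, singled out after its values were seen, was at 2.11 to 3.38 CPM in 16 libraries but at 20.2 CPM in APC-deleted 24 h replicate 2 and 20.5 CPM in APC-intact 48 h replicate 3, and was not called in any comparison. Near-identical copies of a gene can share reads, so its level is uncertain.

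The shares of the 140 genes called between treated and untreated cells of a line rest on few calls. Each was below that of all tested genes and of tested genes at 1 CPM or more, and the difference was not tested. In APC-deleted cells 4 genes (2.86%) fell and 1 (0.714%) rose at 24 h, beside 3.77% and 2.08% of all tested genes. At 48 h 9 (6.43%) fell and 4 (2.86%) rose, beside 6.49% and 4.52%. In APC-intact cells 5 genes (3.57%) fell and 0 rose at 24 h, beside 4.25% and 1.39%, and 9 (6.43%) fell and 3 (2.14%) rose at 48 h, beside 7.54% and 3.81%. Of tested genes at 1 CPM or more, 4.69% fell and 2.48% rose in APC-deleted cells at 24 h, and 7.96% and 5.14% at 48 h. In APC-intact cells 5.34% of them fell and 1.57% rose at 24 h, and 9.32% and 4.31% at 48 h. The responses of a line at 24 h and at 48 h share its untreated libraries. Library totals in place of TMM factors changed the split to 4 lower and 2 higher in APC-deleted cells at 24 h and to 6 lower and 7 higher in APC-intact cells at 48 h. Those fits called 869 and 1696 of all 15006 tested genes. The median responses were -0.018 and -0.012 in APC-deleted cells and -0.011 and 0.043 in APC-intact cells. Without the 2 libraries that stood apart, 18 and 27 genes were called in APC-deleted cells and 5 and 28 in APC-intact cells at 24 h and 48 h. In the same fits 1564 and 3009 of all 15210 tested genes were called in APC-deleted cells and 856 and 2984 in APC-intact cells. Neither library is in the groups of the APC-deleted response at 24 h or the APC-intact response at 48 h. They enter those counts only through the fit that all groups share. The treated and untreated groups carry different run designations in all of these comparisons except APC-intact cells at 24 h, so treatment and run cannot be told apart in the others. The counts moved when single libraries were left out, to 1 to 4 calls in APC-deleted cells at 24 h and 8 to 25 at 48 h. In APC-intact cells they moved to 1 to 9 and 4 to 9. The 25 calls came without APC-deleted 48 h replicate 2 and the 9 calls at 24 h without APC-intact 24 h replicate 2.

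Tslp and Mocos were called lower in all 4 responses. Tslp had 3.12, 3.55 and 3.21 CPM at 24 h and 3.45, 3.69 and 3.19 CPM at 48 h in APC-deleted cells, below the untreated values given above, and 1.08, 1.10 and 1.07 CPM at 24 h and 0.914, 0.969 and 1.17 CPM at 48 h in APC-intact cells. Its log2 responses were -0.72 ± 0.121 and -0.66 ± 0.121 in APC-deleted cells and -0.63 ± 0.133 and -0.72 ± 0.133 in APC-intact cells, and treated and untreated libraries did not overlap. The 24 h call in APC-intact cells was lost without untreated replicate 1 (adjusted p = 0.0633). Mocos, which sulfurates the molybdenum cofactor, fell by 0.20 and 0.23 in APC-deleted cells and by 0.24 and 0.27 in APC-intact cells. Its 24 h calls were lost in 5 of 6 single omissions in APC-deleted cells and 2 of 6 in APC-intact cells. Gypc fell at 48 h in both lines, by 0.37 ± 0.0564 in APC-deleted cells and by 0.30 ± 0.0561 in APC-intact cells (adjusted p = 0.000301 and 0.00142). Sh3rf2 was called lower in APC-deleted cells, at -0.30 ± 0.0737 and -0.25 ± 0.0738, and was at -0.17 and -0.16 in APC-intact cells, where neither passed the test. Each of its 2 calls was lost in 3 of 6 single omissions.

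Hbegf and Tmco6 were called lower at 48 h in both lines, by 0.25 and 0.30 in APC-deleted cells and by 0.14 and 0.29 in APC-intact cells. The Hbegf call in APC-deleted cells held in every single omission, that in APC-intact cells was lost in 6 of 6, and both calls of Tmco6 were lost at least once. In APC-deleted cells at 48 h Rprd1a rose by 0.58 ± 0.123, and B4galt6 and Cd14 fell by 0.25 and 0.35. Those 3 calls held in every single omission, whereas the fall of Nol4 (-0.31) and the rises of Sap130, a subunit of the Sin3 repressor complex, and Brd8, each at 0.22, did not. Sap130 was also the 1 gene that rose in APC-deleted cells at 24 h, a call that was lost in 4 of 6 single omissions (adjusted p up to 0.15). In APC-intact cells Kif20a fell at 24 h by 0.24 ± 0.0478 (adjusted p = 0.00442) and Ecscr at 48 h by 0.32 ± 0.0637 (adjusted p = 0.00232), and both held. The rises of Pura, Spry4 and Slc12a2 at 48 h, by 0.28, 0.20 and 0.28, were each lost in at least 1 omission, as were the falls of Sil1, Tnfaip8 and Srfbp1, by 0.22, 0.28 and 0.18. Arl14epl fell at 24 h in both lines, by 0.52 in APC-deleted cells and by 0.54 in APC-intact cells, and 4930511M06Rik in APC-intact cells by 0.27, calls that were likewise lost in at least 1 omission.

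A call in 1 line does not show that the lines differ in response. The test of that difference, the line difference at a time minus the line difference without doxycycline, called 0 of the 140 genes at 24 h and 0 at 48 h in edgeR, with 6 and 11 genes at an unadjusted p under 0.05, while 0.00666% and 0.0267% of all tested genes were called. DESeq2 also called 0 at both times, with 7 and 11 at an unadjusted p under 0.05. Because the lines carry different run designations at 24 h, the 24 h difference cannot be told apart from run. The median difference was 0.007 at 24 h and -0.045 at 48 h, and over the other chromosomes 0.009 and 0.006. Without APC-deleted 48 h replicate 2 the 48 h median was -0.009.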

How the data were processed

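The authors deposited raw gene counts from HTSeq after alignment with STAR to mm10, per the submitters' processing notes; versions, strand setting and annotation release are not given in the sources used here. The deposited RPKM column was not used. Entries that name no gene (22.9 to 25.5% of a library) were left out. The 25225 genes with a count were filtered by edgeR's filterByExpr to 15006. The counts were fitted with edgeR 4.0.16 (TMM factors, 1 coefficient per group over 18 libraries, robust quasi-likelihood), and 9 comparisons were tested with Benjamini-Hochberg adjustment at 0.05. The standard error was taken from the F statistic. CPM per library is TMM-scaled, and RPKM was computed from it with summed exon length. The membership rule used CPM without TMM. Scripts were tested on simulated data. DESeq2 1.42.0, other scaling factors, filters, sample sets and a replicate block were alternatives.

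The members, the role lists and the marker lists were chosen with earlier results of these data known. Genes named in the text come from a rule that admits 61 genes: the 6 nearest to Apc on each side, the largest called changes without overlap at 5 CPM or more, and the most abundant overall and in each role list; exceptions are named as such, and Pcdhb17, Pcdhb21, Cxxc5, Arl14epl, genes at the thresholds, overlap partners and called responses beyond the 3 largest of a comparison are such exceptions, chosen after their values were seen. Of the 140 genes, 138 matched the GENCODE M21 annotation by identifier and 133 of those are protein coding; 37 overlap another tested gene. Sequences of this chromosome are not reported here, and some genes are not reported here. The 2 runs were read from designations in the file names, which is an inference.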

Additional observations from a re-analysis of the deposited data

How the results depend on the processing

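The line differences held best: their counts stayed within 1.5 times under each alternative, from 42 to 70 genes lower without doxycycline, 51 to 70 at 24 h and 52 to 77 at 48 h. Leaving out single libraries lost 22 of 66 calls without doxycycline, 24 of 77 at 24 h and 19 of 74 at 48 h at least once and turned no sign. Calls were gained too. Among named genes uncalled at 48 h, Matr3 was called in 6 of 14 alternative fits, Hbegf in 4 and Nr3c1 in 3. Tmed7, Ap3s1 and Brd8 were each called in 2, and Cdc23, Wdr36 and Epb4.1l4a in 1. The median moved to -0.194 at 24 h with library totals in place of TMM factors and to -0.133 without doxycycline with no filter on low counts, and ranged from -0.168 to -0.139 without single libraries there. 2410004N09Rik at 24 h ranged from -0.28 to 0.076 without single libraries, the positive value without APC-intact replicate 2. The counts of responses did not hold, and the cause was not tested. In APC-deleted cells at 24 h, 16 were called with DESeq2, 3 at 5 CPM or more, 27 with only the groups compared, 9 with the replicate block and 18 without the 2 libraries that stood apart, which were left out, like overlapping genes, as choices made after seeing the data. Over all tested genes, 1388 of 15006 were called with DESeq2, 2473 of 14030 with only the groups compared and 988 of 15006 with the replicate block. In APC-intact cells at 24 h, 3 were called with library totals, 3 at 5 CPM or more, 3 without overlapping genes and 0 with only the groups compared. Over all tested genes, 762 of 15006 were called there with library totals and 258 of 14241 with only the groups compared. At 48 h, 4 were called in APC-deleted cells and 46 in APC-intact cells with only the groups compared, where 433 of 13950 and 4367 of 14272 tested genes were called, and 27 and 28 without those 2 libraries, where 3009 and 2984 of 15210 were. Library totals gave 6 lower and 7 higher in APC-intact cells at 48 h, where 1696 of all 15006 tested genes were called. Without single libraries the counts ranged from 1 to 4 and 8 to 25 in APC-deleted cells and from 1 to 9 and 4 to 9 in APC-intact cells. The median response of APC-intact cells at 48 h was 0.015 at 5 CPM or more and 0.014 to 0.047 without single libraries, where it was -0.014 to 0.011 at 24 h. The median difference of line effect ranged from -0.028 to 0.010 at 24 h and from -0.070 to -0.009 at 48 h. Same-numbered libraries had a correlation of deviations over 0.1 in 4 of 45 pairs. Of these, 3 were all the pairs of APC-intact 24 h with APC-deleted 48 h libraries (0.103, 0.153 and 0.237), groups that were not compared with each other, and no 2 groups compared had it in every pair, so the numbers were not taken to pair the samples. The replicate block gave 5 lower and 4 higher in APC-deleted cells at 24 h and 11 lower and 7 higher in APC-intact cells at 48 h, and its other totals were within 1.5 times. It called 988 and 2173 of all 15006 tested genes in those 2 comparisons. The effect of depth on the calls was not tested. Among the genes near 1 CPM, Pcdhb21 had a standard error of 0.284 at 48 h.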
